A study of Rattus norvegicus with 12 samples.

Results

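Regulators of G protein signalling (RGS proteins) were followed in neonatal rat heart cells exposed to the plasticizer DEHP, di(2-ethylhexyl) phthalate. The rule takes genes by symbol and uses no measured value, but it was written with earlier results of these data known. Of 9 listed genes, Rgs2, Rgs3, Rgs4, Rgs5, Rgs6, Rgs7, Rgs16 and Rgs19 each had 1 probe set annotated to that symbol alone, which gives 8 genes of the 14324 that the arrays measured. The remaining gene, Rgs10, was not analysed here because its only probe set is also annotated to Tial1, the next protein-coding gene along the chromosome.

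A G protein is switched on when a receptor loads GTP onto its alpha subunit, and it is switched off when that GTP is hydrolysed. RGS proteins bind the active alpha subunit and speed up the hydrolysis, so they shorten signals from receptors for noradrenaline, acetylcholine, endothelin and angiotensin. Most of them act on alpha subunits of the Gi/o class, the Gq class or both. In heart and vessels they are known for limiting hypertrophic Gq signals, for the vagal control of heart rate and for setting vascular tone.

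The cells were isolated by enzymatic digestion from hearts of 2-day-old Sprague-Dawley rats and grown for 3 days. The 6 DEHP cultures then spent 3 days in 50 µg/mL DEHP with 0.1% DMSO, and the 6 control cultures spent the same time in 0.1% DMSO, so that strain, age and vehicle were common to both. All cells came from the same litter, and the p-values below measure the spread between cultures and arrays of that litter. Each value is the log2 of a deposited ratio, which sets a probe set against its own median over the 12 arrays. A log2 ratio of 0 is therefore the middle of the 12 arrays, and where the groups do not overlap it lies midway between the nearest control and DEHP arrays. The ratios hold no level, so no RGS gene can be called more abundant than another, and the presence of heart muscle markers in these cells could not be checked.

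Folds are DEHP over control from limma, given with the standard error (SE). A gene passed at a Benjamini-Hochberg adjusted p under 0.05 over all 27342 probe sets. The arrays of control replicate 5 and DEHP replicate 6 were the most spread out, with a standard deviation (SD) of log2 ratios over all probe sets of 0.37 and 0.27 where the other arrays had 0.15 to 0.19. Member results that rest on either are given with and without them, and so are some, not all, of the list counts and folds. The samples are bulk RNA, in which fewer cells of a type and less RNA per cell cannot be told apart.

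Rgs4 and Rgs2 were lower under DEHP, by 2.49-fold and 1.69-fold, and 0 of the 8 genes were higher. The other 6 genes did not pass. Rgs16 lay below the controls on 5 of 6 DEHP arrays and above them on the last. The share of members that passed, 2 of 8 (25%), stood beside 24.6% of all genes, and their share of falls beside 10.2%, so the count alone sets the members apart little. Falls past the test of at least 1.5-fold, which both Rgs4 and Rgs2 had, were made by 2.79% of all genes. At an unadjusted p under 0.05, 4 members were lower and 0 higher in limma, where 14.9% of all genes were lower and 20.6% higher. The median log2 fold of the 8 genes was −0.23, against −0.02 over all genes, and 6 of the 8 folds were below 0, as were 55.4% of folds over all genes.

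**Figure D1:**
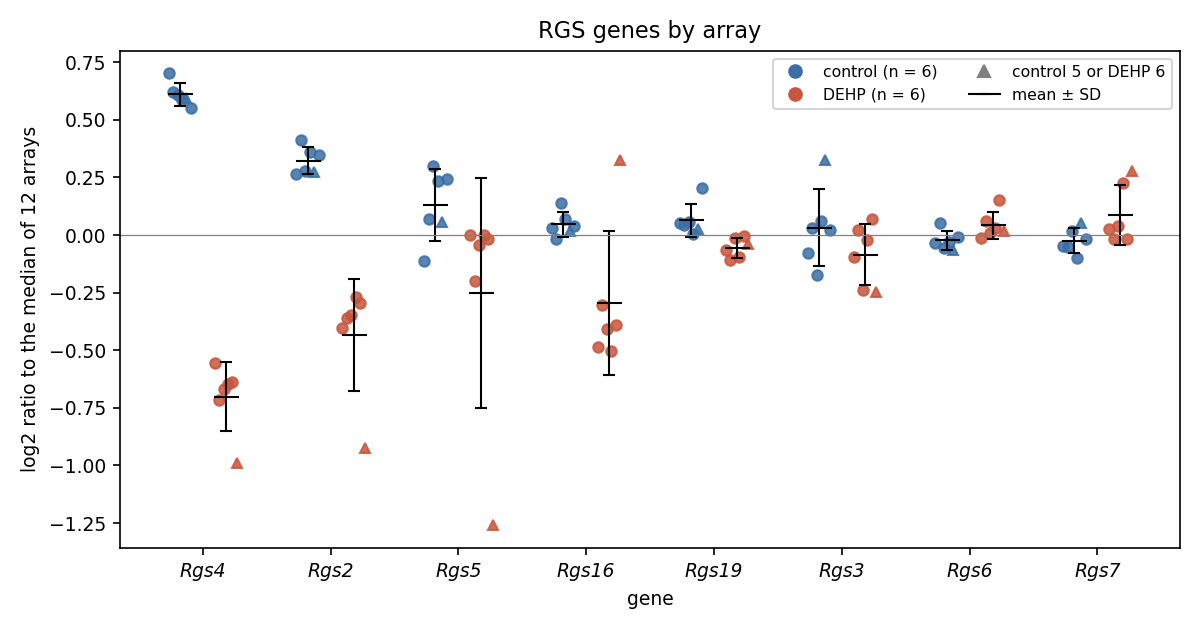
Log2 ratio to the median of the 12 arrays (y axis) for 8 RGS genes (x axis, in order of fold). Blue points are control and red points DEHP arrays, triangles are control replicate 5 and DEHP replicate 6, and bars are mean ± SD (n = 6 each). Rgs4 and Rgs2 separate the groups by a wide gap, and DEHP replicate 6 lies far from the other DEHP arrays in Rgs2, Rgs5 and Rgs16.

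Rgs4 had the largest fall. It encodes a small RGS protein, little more than the RGS domain itself, that acts on both Gi/o and Gq alpha subunits and is known from the pacemaker region of the heart and from brain. In controls its log2 ratio was 0.55 at the lowest, 0.603 at the median and 0.70 at the highest. Under DEHP the lowest was −0.99, the median −0.66 and the highest −0.55. The controls sat close together, every DEHP array lay below every control array, and DEHP replicate 6 was the lowest of all. The control mean was 0.61 ± 0.05 and the DEHP mean −0.70 ± 0.15 (SD, n = 6 each), which gave a log2 fold of −1.31 ± 0.06 (adjusted p = 5e-08). Among 14324 genes this was rank 66 from the lowest fold and rank 23 by p, and 0.901% of genes passed with a fall of at least 2-fold. Without control replicate 5 and DEHP replicate 6 the log2 fold was −1.26 ± 0.04.

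Rgs2 encodes the member with a preference for Gq alpha subunits, the class that carries endothelin, angiotensin and alpha1-adrenergic signals. Its log2 ratio ran from 0.27 to 0.41 in controls with a median of 0.31. Under DEHP it ran from −0.92 to −0.27 with a median of −0.35. Here too the groups did not overlap, and 5 of the 6 DEHP arrays lay between −0.40 and −0.27 with DEHP replicate 6 well below them. The means were 0.32 ± 0.06 and −0.43 ± 0.24 (SD, n = 6 each), with a log2 fold of −0.76 ± 0.10 (adjusted p = 9.69e-05). Without control replicate 5 and DEHP replicate 6 it was −0.67 ± 0.04 (adjusted p = 3.28e-07).

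The falls of Rgs4 and Rgs2 differed in size. Within each array the log2 ratio of Rgs4 minus that of Rgs2 averaged 0.29 ± 0.09 on control and −0.27 ± 0.13 on DEHP arrays (SD, n = 6 each), a change of −0.56. Rgs4, as the member with the largest fall, was set against each of the other 7 genes in this way, after their values were seen. Against a gene that moved little, such a difference mainly repeats the fall of Rgs4. For such genes the p-values below add nothing to that fall. The changes ran from −1.43 against Rgs7 to −0.56 against Rgs2, and each had a two-sided exact permutation p of 0.00216, the smallest that 924 splits of the arrays allow, and 0.00216 after adjustment over the 7 pairs. A shift shared by all genes of an array cancels in these differences. Without control replicate 5 and DEHP replicate 6 each exact p was 0.00794, again the smallest possible with 252 splits.

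Rgs16 encodes another small RGS protein that acts on Gi/o and Gq. In controls its log2 ratio was −0.02 at the lowest, 0.03 at the median and 0.14 at the highest. The 5 DEHP arrays other than replicate 6 lay between −0.50 and −0.30, while DEHP replicate 6 was at 0.32, above every control. Over all arrays the log2 fold was −0.34 ± 0.12 and did not pass (adjusted p = 0.067). Without DEHP replicate 6 it was −0.46 ± 0.05, a 1.38-fold fall with an adjusted p of 1.42e-05, and 3 members then passed, beside 23.7% of all genes (9.77% lower). It also passed with all 12 arrays under quantile normalization (adjusted p = 0.026), array weights (0.00104) and a test of probe sets with 1 gene symbol alone (0.048), so the call depends on these settings as well as on that array.

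Rgs5 lies next to Rgs4 on chromosome 13 with no protein-coding gene between them, and encodes a small RGS protein known as a marker of pericytes and vascular smooth muscle. Its log2 ratio ran from −0.11 to 0.30 in controls, with a median of 0.15. Under DEHP 5 arrays lay between −0.20 and 0.00028, and DEHP replicate 6 was at −1.26, the lowest value of any member on any array. The groups overlapped, and the log2 fold of −0.38 ± 0.19 did not pass (adjusted p = 0.22, 95% confidence interval −0.80 to 0.03). Without DEHP replicate 6 it was −0.18 ± 0.07 (adjusted p = 0.13), a move of more than 1.5 times. The difference between the neighbours Rgs4 and Rgs5, a pair already counted above, moved by −0.93 (exact permutation p = 0.00216, the smallest possible). As Rgs5 did not pass, this mainly repeats the fall of Rgs4. On DEHP replicate 6 the log2 ratio of Rgs5 was below that of Rgs4. The difference there was 0.27, close to the lowest control at 0.31. Without control replicate 5 and DEHP replicate 6 the difference moved by −1.06.

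**Figure D2:**
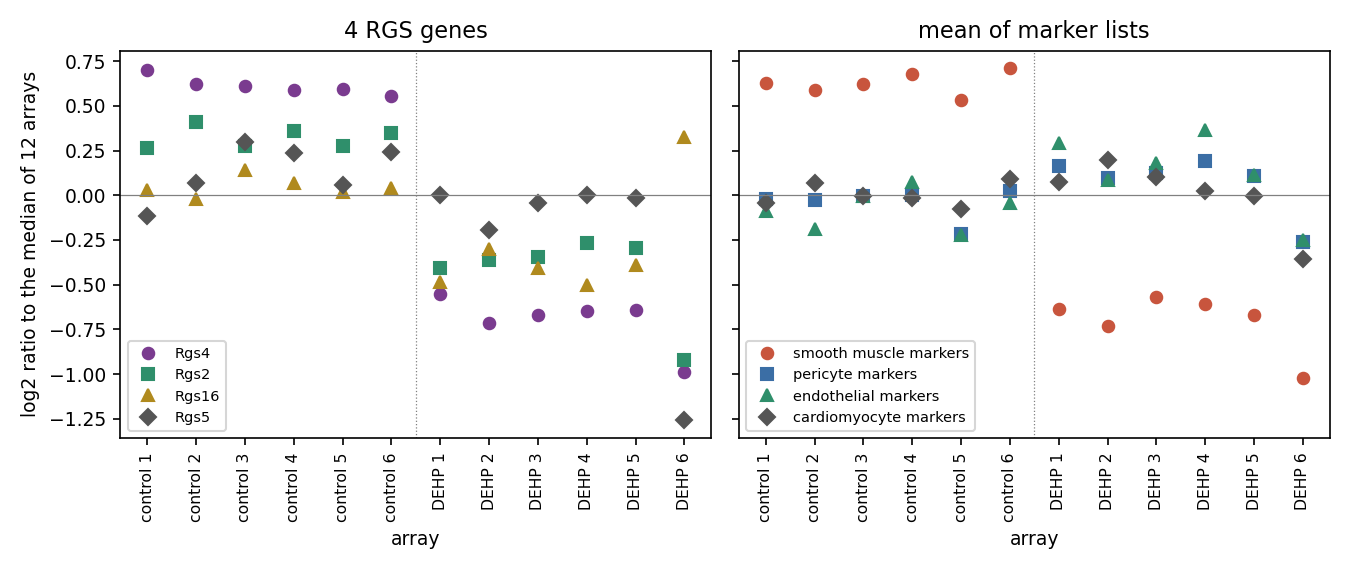
Log2 ratio to the median of the 12 arrays (y axis) on each array (x axis), for Rgs4, Rgs2, Rgs16 and Rgs5 on the left and for the mean of 4 marker lists on the right. The dotted line parts control from DEHP arrays. On DEHP replicate 6, Rgs5 is at −1.26 and Rgs16 at 0.32, and the pericyte, endothelial and cardiomyocyte marker means are at −0.26, −0.25 and −0.36.

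The sequence before the start of these genes is shown because Rgs4 and Rgs2 fell together, Rgs16 lay lower on 5 of 6 DEHP arrays, and Rgs5 is the neighbour of Rgs4 that did not pass. Each stretch holds the 250 bases before the gene's start in RefSeq, 5′ to 3′ on the gene's own strand, assembly GRCr8. The positions are chr13:84475885-84476134, minus strand, for Rgs4, chr13:58352667-58352916, minus strand, for Rgs2, chr13:68437870-68438119, plus strand, for Rgs16, and chr13:84380827-84381076, plus strand, for Rgs5. Capitals mark matches, on either strand, to the cyclic AMP response half-site TGACG, the CCAAT box, the TATA sequence TATAAA or the nuclear receptor half-site AGGTCA, which PPAR receptors also use as part of a repeat.
Rgs4: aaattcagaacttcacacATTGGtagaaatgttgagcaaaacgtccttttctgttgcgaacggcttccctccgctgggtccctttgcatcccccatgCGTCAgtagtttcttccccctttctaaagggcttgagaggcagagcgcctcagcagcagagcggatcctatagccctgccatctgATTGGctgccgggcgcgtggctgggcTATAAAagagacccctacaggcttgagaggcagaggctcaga
Rgs2: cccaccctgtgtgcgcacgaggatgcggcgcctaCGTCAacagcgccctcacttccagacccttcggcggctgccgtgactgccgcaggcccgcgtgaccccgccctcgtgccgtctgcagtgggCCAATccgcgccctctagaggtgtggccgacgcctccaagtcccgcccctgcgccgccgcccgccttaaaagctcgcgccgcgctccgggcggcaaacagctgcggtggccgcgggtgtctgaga
Rgs16: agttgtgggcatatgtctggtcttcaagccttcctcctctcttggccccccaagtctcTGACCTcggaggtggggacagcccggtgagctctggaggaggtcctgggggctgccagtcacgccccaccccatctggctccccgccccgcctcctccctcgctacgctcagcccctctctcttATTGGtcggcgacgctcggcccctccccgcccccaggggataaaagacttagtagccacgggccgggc
Rgs5: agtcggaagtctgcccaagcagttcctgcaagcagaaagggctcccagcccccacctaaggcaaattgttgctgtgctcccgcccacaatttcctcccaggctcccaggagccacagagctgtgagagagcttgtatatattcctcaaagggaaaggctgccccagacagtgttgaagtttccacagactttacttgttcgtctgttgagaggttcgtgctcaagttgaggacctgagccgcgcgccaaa

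In these windows Rgs4 held TATAAA once, starting 42 bases before the gene's start, CCAAT read from the opposite strand at 68 and 232 bases, and TGACG on the opposite strand at 153 bases. Rgs2 held TGACG on the opposite strand at 216 bases and CCAAT at 125. Rgs16 held a CCAAT on the opposite strand at 68 bases, as in Rgs4, and AGGTCA on the opposite strand at 192 bases. Rgs5 had 0 matches to these 4 motifs. No 2 matches overlapped. The motif TGACG was also in the window of Rgs3, which did not pass, and so in 3 of 9 listed genes (Rgs10 included), against 18.2% of 33469 rat promoters. CCAAT was in 3 of the 9 against 34% of promoters, and TATAAA in 2 of 9 against 12.9%. AGGTCA was in 1 of 9 against 14.1% of promoters. The serum response motif known as the CArG box was in 0 of the 9 windows and in 1.5% of promoters. The motifs were searched on both strands and were chosen with the sequences in view. A match is a description of the letters and not of binding.

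The members that differed least included Rgs19, Rgs3, Rgs6 and Rgs7. Rgs19, also known as GAIP, binds Gi/o alpha subunits. Its groups did not overlap, at 0.0036 to 0.20 in controls and −0.11 to −0.0036 under DEHP, but the gap between them was narrow. Its log2 fold of −0.12 ± 0.04 did not pass (adjusted p = 0.055). Without control replicate 5 it passed with an adjusted p of 0.045 and a log2 fold of −0.13. Groups did not overlap in 3 of the 8 genes, Rgs4, Rgs2 and Rgs19, each lower under DEHP. They did not overlap in 16.9% of all genes, with DEHP lower in 6.88%.

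Rgs3, a member made in long and short forms, had log2 ratios of −0.17 to 0.33 in controls and −0.25 to 0.07 under DEHP. The fold was −0.12 ± 0.08 (adjusted p = 0.40, 95% confidence interval −0.30 to 0.06), and the arrays of both groups mixed. Control replicate 5 was its highest array, and without that array and DEHP replicate 6 its fold was −0.03 ± 0.06. Its array probes were not resolved by transcript, so forms that moved apart would not be seen.

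Rgs6 and Rgs7 are larger members that pair with the beta subunit Gnb5. Rgs6 is known for curbing the muscarinic slowing of the heart, and Rgs7 is best known from neurons. Both folds were above 0 and neither passed. Rgs6 ran from −0.06 to 0.05 in controls and from −0.01 to 0.15 under DEHP, with a fold of 0.07 ± 0.04 (adjusted p = 0.28, 95% confidence interval −0.01 to 0.14). Rgs7 ran from −0.10 to 0.05 and from −0.02 to 0.28, with a fold of 0.11 ± 0.06 (adjusted p = 0.22, 95% confidence interval −0.01 to 0.24). The intervals leave room for rises of at most 0.14 in Rgs6 and 0.24 in Rgs7 on the log2 scale, far less than the size of the fall in Rgs4. Gnb5 itself did not pass (0.07 ± 0.06).

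Across the whole RGS family 17 genes had a probe set of their own, and 4 fell while 0 rose, beside 10.2% of all genes that fell and 14.4% that rose. Of 9 measured genes outside the members, 2 fell and 0 rose in limma, and at an unadjusted p under 0.05 the same counts held, 2 lower and 0 higher. Their median log2 fold was −0.02. Rgs17, a member of the RZ group that acts on Gi/o and Gz, went from 0.26 ± 0.19 in controls to −0.25 ± 0.14 under DEHP (SD, n = 6 each) without overlap, a log2 fold of −0.50 ± 0.09 (adjusted p = 0.00143). Against a minimum fold of 1.2 its adjusted p was 0.18. Rgs8, the neighbour of Rgs16, passed narrowly at −0.16 ± 0.05 (adjusted p = 0.04996). That call was lost on leaving out any array other than control replicate 4, DEHP replicate 2 or DEHP replicate 5, at adjusted p of 0.061 to 0.11.

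By subfamily, the R4 group of small RGS proteins held 8 of the 17 measured genes and 3 of the 4 falls. Among its 8 measured genes, 3 fell (Rgs4, Rgs2 and Rgs8), 7 folds were below 0, and they ran from −1.31 to 0.01. Beside this, 10.2% of all genes fell and 55.4% of all folds were below 0. Rgs8 passed narrowly, and under 6 of 22 alternatives. Of the 4 R7 genes 0 passed, with folds from −0.02 to 0.11, and of the 2 R12 genes 0 passed, with −0.12 and −0.09. Of the 3 RZ genes Rgs17 fell. Chromosome 13 carries every measured R4 gene but Rgs3, and Rgs7 as well. On that chromosome Rgs2 lies near Rgs1, which was at −0.01 ± 0.08, and the nearest protein-coding neighbours of the Rgs4 and Rgs5 pair were Nuf2 (−0.95 ± 0.13) on one side and Ccdc190 (−0.12 ± 0.08, adjusted p = 0.35) on the other.

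**Figure D3:**
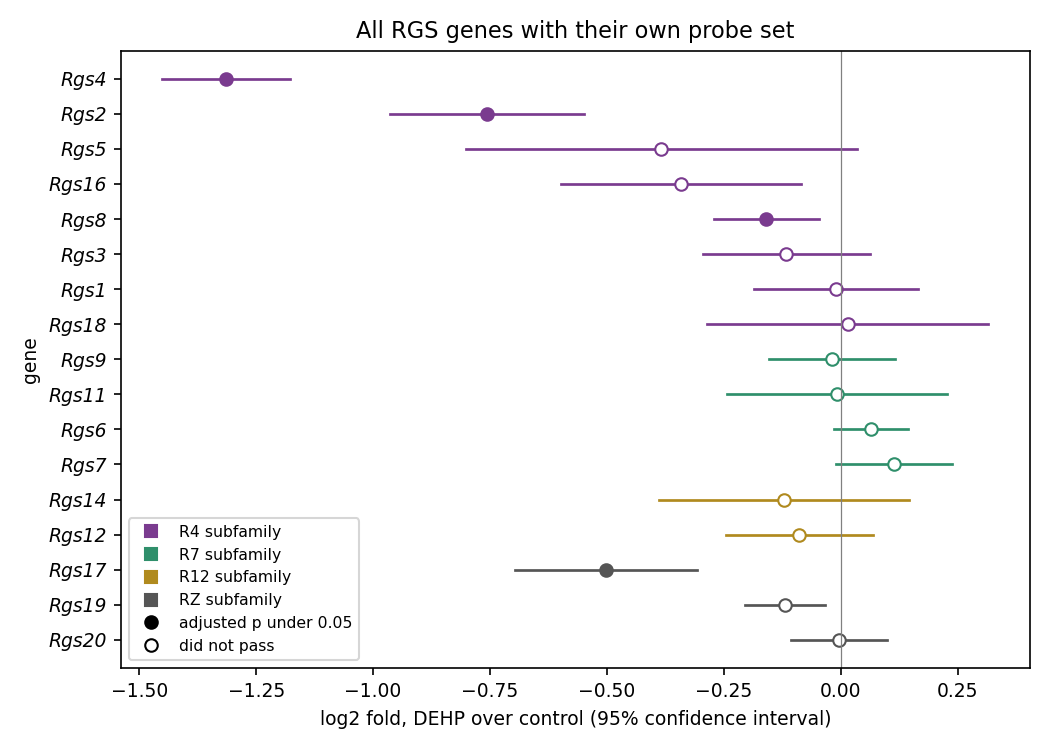
Log2 fold, DEHP over control, with its 95% confidence interval (x axis) for 17 RGS genes with their own probe set (y axis), coloured by subfamily. Filled points passed at an adjusted p under 0.05. Rgs4, Rgs2, Rgs17 and Rgs8 are filled, with intervals below 0, and 0 genes are filled above 0.

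The genes whose profile over the 12 arrays was most like that of Rgs4 were Fads2, Fibin and Fhl1, with root mean square differences in log2 ratio of 0.07, 0.07 and 0.09. Fads2 encodes a fatty acid desaturase and Fhl1 a LIM-domain protein of muscle. Their log2 folds were −1.35 ± 0.07, −1.29 ± 0.09 and −1.34 ± 0.10. The measure takes in the fold itself, so likeness here is mostly a like fold. For Rgs2, added after the values were seen, the nearest were Serpinf1, Vegfc and Olfml2b, at 0.07, 0.08 and 0.08.

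Genes around the RGS proteins in the pathway moved both ways. Of 127 measured genes in the other RGS genes and 6 further lists, 20 rose, 25 fell and 82 did not pass, which is 35.4% called against 24.6% of all genes. Their median log2 fold was −0.05. In each list below the genes named had the smallest p among those that passed.

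Receptors included the largest rises. Of 36 measured receptor genes 8 rose and 6 fell, with a median of −0.06. Chrm2, the muscarinic receptor of heart muscle, which couples to Gi, went from −0.76 ± 0.19 to 0.81 ± 0.13 (SD, n = 6 each), a log2 fold of 1.57 ± 0.09. Htr2a, a Gq-coupled serotonin receptor, rose by 0.60 ± 0.05, and Adora2b, an adenosine receptor, by 1.204 ± 0.114. Adjusted p was at most 8.24e-06 for these 3 genes.

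Among 16 alpha subunits, the direct targets of RGS proteins, 2 rose, 3 fell and 11 did not pass, with a median of −0.07. Gna14 of the Gq class fell (−0.46 ± 0.06, adjusted p = 0.000112), as did Gnat2, the cone transducin (−0.17 ± 0.04). Gna13, of the G12/13 class, rose (0.65 ± 0.15, adjusted p = 0.0083). It was at −1.11 on control replicate 5 against −0.36 to −0.10 on the other controls. Without control replicate 5 the log2 fold of Gna13 was 0.50 (adjusted p = 0.00035). The rises numbered 1 without DEHP replicate 1 or DEHP replicate 4 and 4 without DEHP replicate 6, and the falls 5 without control replicate 5.

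Of 14 beta and gamma subunits 7 fell and 1 rose, the other 6 not passing, and their median was −0.19. Gnb4 fell (−0.43 ± 0.05, adjusted p = 3.09e-05) and so did Gng3 (−0.66 ± 0.11). Gnb3 was the 1 rise (0.93 ± 0.11, adjusted p = 6.72e-05). There were 2 rises and 6 falls without control replicate 5, without DEHP replicate 6 and without both. The falls numbered 6 on leaving out any array other than control replicate 1 or DEHP replicate 4.

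Effectors downstream of the G proteins had 5 rises and 4 falls among 26 genes, with a median of −0.04. The adenylyl cyclases Adcy2 (1.44 ± 0.08) and Adcy5 (0.57 ± 0.05), which make cyclic AMP, rose. Kcnj3, a subunit of the potassium channel that muscarinic receptors open through Gi, rose too (0.56 ± 0.07). Adjusted p was at most 0.000108 for these 3. Without control replicate 5 and DEHP replicate 6 there were 6 rises and 8 falls, and without control replicate 5 alone 5 rises and 7 falls. The falls dropped to 3 on leaving out any array other than control replicate 5 or DEHP replicate 6.

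Partners of RGS proteins and other proteins with an RGS domain had 4 rises and 2 falls among 16 genes, with a median of −0.01. Rgs7bp, which anchors the R7 members to the membrane, fell from 0.44 ± 0.14 to −0.37 ± 0.13 without overlap (SD, n = 6 each), a log2 fold of −0.81 ± 0.07 (adjusted p = 5.68e-06). Arhgef1, an exchange factor with an RGS-like domain, fell by 0.27 on the log2 scale, and Akap10, a kinase anchor with RGS domains, rose by 0.29 ± 0.08. Without control replicate 5 the log2 fold of Akap10 was 0.22 (adjusted p = 0.0026). The rises dropped to 2 without control replicate 2, 4 or 6 or DEHP replicate 1, 2, 3 or 4, and to 1 without DEHP replicate 6. Receptor kinases and arrestins, which shut receptors off, had 1 fall and 0 rises among 10 genes in limma, and at an unadjusted p under 0.05 these were 1 and 2. Without control replicate 1 or control replicate 4 there was 1 rise. The fall was that of Grk6 (−0.16 ± 0.05, adjusted p = 0.033), and it was lost without control replicate 2, 4 or 6 or DEHP replicate 3, 4, 5 or 6, at adjusted p of 0.05003 to 0.073.

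**Figure D4:**
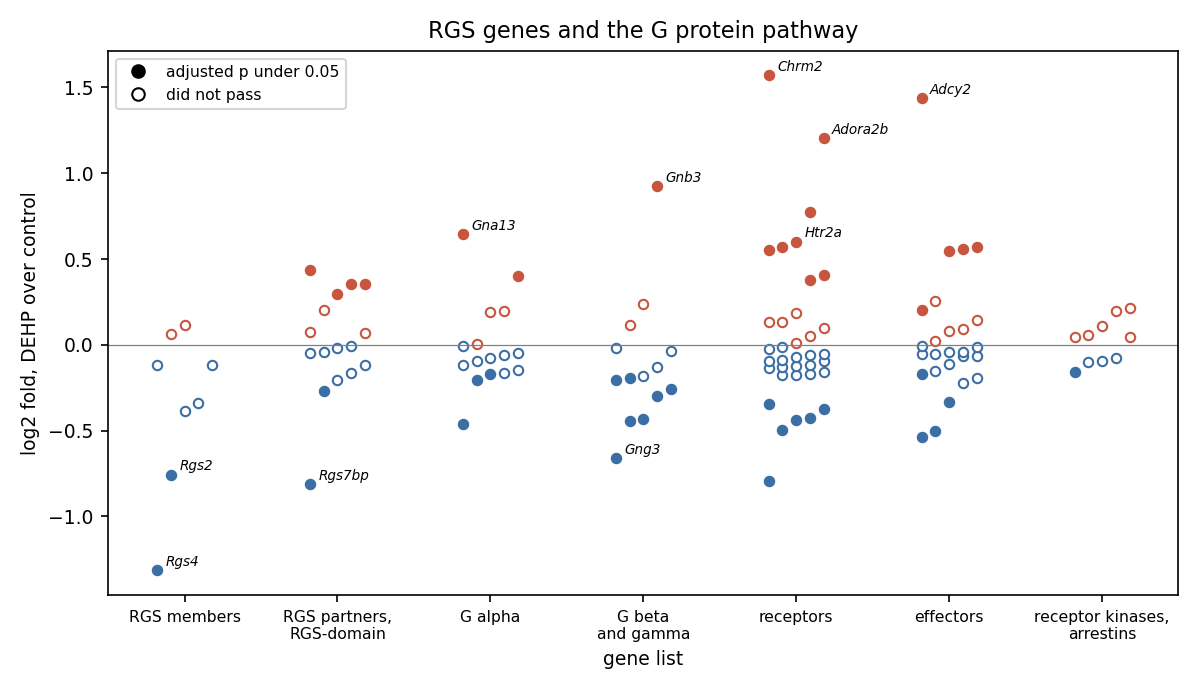
Log2 fold, DEHP over control (y axis), for each measured gene of the RGS members and 6 pathway lists (x axis). Filled points passed at an adjusted p under 0.05, with red above and blue below 0. The RGS members have 2 filled points, both below 0, and the receptors and effectors reach 1.57 and 1.44.

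Marker lists of the cell types that such cultures can hold moved in the same arrays. In each list the share that passed, 53.8% to 100%, was above the 24.6% of all genes (10.2% lower and 14.4% higher). Smooth muscle markers fell in 8 of 8 measured genes with 0 rises (also 0 at an unadjusted p under 0.05 in limma), and their mean log2 ratio ran from 0.53 to 0.71 in controls and from −1.02 to −0.57 under DEHP. Their lowest array was DEHP replicate 6, as it was for the pericyte, cardiomyocyte, fibroblast and endothelial lists below and for Rgs4 and Rgs2. Pericyte markers had 3 rises and 4 falls among 9, with means of −0.22 to 0.02 in controls and −0.26 to 0.19 under DEHP, where DEHP replicate 6 was the lowest. Cardiomyocyte markers had 2 rises and 5 falls among 13 (means −0.08 to 0.09 and −0.36 to 0.20), and fibroblast markers 3 and 5 among 9 (−0.03 to 0.12 and −0.31 to −0.01). Endothelial markers had 4 rises and 1 fall among 8 (−0.22 to 0.07 and −0.25 to 0.37). Without DEHP replicate 6 the DEHP means were 0.10 to 0.19 for pericyte and 0.09 to 0.37 for endothelial markers, above every control in both lists. Yet over all arrays 6 of the 9 pericyte folds were below 0 (55.4% over all genes), with a median of −0.17. The pericyte genes that rose were Abcc9 (1.57), Kcnj8 (1.01) and Anpep (0.53). Those that fell were Mcam (−0.74), Notch3 (−0.58), Pdgfrb (−0.27) and Cspg4 (−0.23). Without control replicate 5 the fibroblast marker means were 0.04 to 0.12 in controls, above every DEHP array. Leukocyte markers had 3 rises and 3 falls among 11 (−0.14 to 0.12 and −0.05 to 0.11), and Schwann cell and neuronal markers 1 and 2 among 5 (0.0086 to 0.13 and −0.10 to 0.05). The latter had 1 fall on leaving out any array other than control replicate 1, control replicate 3 or DEHP replicate 5. With 1 array left out, leukocyte markers had 2 to 3 rises and 2 to 4 falls. Cardiomyocyte markers then had 2 to 3 rises and 4 to 6 falls, and fibroblast markers 4 to 5 falls. Without both control replicate 5 and DEHP replicate 6, rises and falls were 3 and 6 for cardiomyocyte, 5 and 1 for endothelial and 3 and 5 for leukocyte markers. The part of any of these cell types in the falls of Rgs4 and Rgs2 was not tested.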

How the data were processed

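RNA from 6 control and 6 DEHP cultures was measured on Affymetrix arrays, 1 per culture. RMA was used on the arrays, per the submitters' processing notes, which give no version. The deposited values are linear ratios, each to the probe set's own median over the 12 arrays, as found from the values. The log2 of each ratio was used as deposited.

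Gene names come from the platform annotation, in which 15097 of 27342 had 1 gene symbol, 323 several and 11922 none. Entrez identifiers matched a RefSeq table of assembly GRCr8 for 15067 and changed 0 symbols. The build behind the arrays is not given in the sources used here. A gene took its lowest-numbered probe set.

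DEHP was compared with control by limma 3.58.1 in R 4.3.3 (lmFit and eBayes, two-sided, no covariate) over all probe sets, and the script was tested on simulated data. The number of arrays limits the precision. All members were named, and from each pathway list the 3 genes with the smallest p among those that passed, where so many did. The members and lists were chosen with earlier results of these data known. Alternatives were quantile normalization, median centring, array weights, robust eBayes, the replicate number as a block, the mean of a gene's probe sets, a minimum fold of 1.2 (limma's treat), a threshold of 0.01, probe sets with 1 symbol alone, and arrays left out. Upstream sequences came from RefSeq, with all 9 listed genes matched. Plots were drawn with matplotlib 3.10.9.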

Additional observations from a re-analysis of the deposited data

Results flagged for a closer look

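Among 26 named genes, 11 values in 52 groups of 6 arrays lay far from the rest of their group by Dixon's test, which flags about 1 in 20 groups by chance. Of these, 7 were in DEHP replicate 6 and 2 in control replicate 5.

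In 4 RGS genes the outlying value was that of DEHP replicate 6. Rgs5 was at −1.26 there against −0.20 to 0.00028 on the other DEHP arrays, Rgs2 at −0.92 against −0.40 to −0.27, and Rgs4 at −0.99 against −0.71 to −0.55. Rgs16 went the other way, at 0.32 against −0.50 to −0.30. Rgs19 was at 0.20 in control replicate 6, against 0.0036 to 0.06 on the other controls.

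In the pathway, DEHP replicate 6 stood apart in Gnb4 (−0.39), Chrm2 (0.56) and Adora2b (1.09). Control replicate 5 stood apart in Akap10 (−0.54) and Gna13 (−1.11), and DEHP replicate 5 in Gng3, at −0.0035 against −0.65 to −0.46 on the other DEHP arrays.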

How the results depend on the processing

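Rgs4 and Rgs2 fell and passed under all 22 alternatives, with log2 folds of −1.34 to −1.26 and −0.79 to −0.66. Rgs16 passed under 5 of the 22 (quantile normalization, adjusted p = 0.026; array weights, 0.00104; probe sets with 1 symbol alone, 0.048; and both settings without DEHP replicate 6), and its adjusted p ran from 1.42e-05 to 1. Rgs19 passed under 2, array weights (0.027) and without control replicate 5. Rgs3, Rgs5, Rgs6 and Rgs7 passed under 0. The log2 folds of the 8 members and the named pathway genes kept their sign under all 22. The members called were 2 of 8 as deposited and 4 with array weights. They were 3 under quantile normalization, with probe sets of 1 symbol alone, and without control replicate 5, DEHP replicate 6 or both. Of all genes 3527 passed, 870 against a minimum fold of 1.2 and 2339 at an adjusted p under 0.01, and of the pathway genes 45 passed, 16 against that minimum fold. With the replicate block 4352 genes, 49 pathway genes and 2 members passed, and among named genes the block changed the call of Grk6 alone (adjusted p = 0.059). Same-numbered arrays deviated together with a correlation over 0.1 in 5 of 6 pairs (0.07 to 0.77 over all 6), and 2 of 6 DEHP arrays lay closest to the control of their own number. The labels do not say that the numbers pair the arrays, and the criterion set for pairing, over 0.1 in every pair, was missed by 1 pair, so the block was kept as an alternative. An exact sign-flip test over the 6 pairs, added after the data were seen, applies if the numbers do pair the arrays. For each of the 7 differences between Rgs4 and another member, this exact sign-flip test gave p = 0.03125. That is the smallest value that 64 sign flips allow, and it was the same after adjustment over the 7. In each difference every DEHP array lay below every control array, so any pairing of the arrays would give this value. The sign-flip test therefore adds nothing to that separation and cannot tell whether the numbers pair the arrays. Quantile normalization and median centring shifted the median fold of all genes by 0.01 and 0.0067. Signal over background is not held in the ratios, so what dim probe sets limit is unknown.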
